A study of Rattus norvegicus with 10 samples.

Results

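AMPA receptors are the ion channels that carry most fast excitatory transmission in the brain, and their transcripts were followed here in brain tissue of single rats. A total of 10 genes were chosen by symbol: the pore-forming subunits Gria1, Gria2, Gria3 and Gria4, the auxiliary proteins Cacng2, Cacng3 and Cacng8 (the TARPs) and Prrt1, and the scaffold proteins Dlg4 and Grip1. They were measured by 21 of the 31042 probe sets tested, 8 for subunits, 4 for TARPs, 3 for Prrt1 and 6 for scaffolds, and each probe set was kept apart. All 21 name a single gene, and no filter on low values was used, so all of them entered every comparison unless stated otherwise. The genes were proposed with results of this comparison in view, in which a probe set of Prrt1 had one of the smallest p values of the whole table, so their differences between the groups are given as a description.

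The rats were male Wistar animals aged 7 weeks. For 5 min, 5 rats breathed air that had passed over 5 mL of distilled water (control) and 5 rats breathed air that had passed over DMHF, a furanone with a sweet, caramel-like smell. They were killed 10 min later, ahead of the dark phase, and total RNA from the brain to the right of the midline went onto 1 Affymetrix array per rat. The labels call the samples biological replicates and name no litter, cage or array batch, so p-values measure the spread between these 10 rats.

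A receptor is assembled from GluA1 to GluA4 proteins, which Gria1 to Gria4 encode. GluA2 makes the channel nearly impermeable to calcium because its transcript is edited, GluA1 and GluA2 dominate in cortical and hippocampal pyramidal cells, and GluA4 is known from cerebellum, brain stem and fast-spiking interneurons. TARPs bind the receptor, slow its closing and tie it to the synapse through PSD-95, the product of Dlg4. Prrt1, also called SynDIG4, is a small membrane protein that associates with AMPA receptors mostly outside the synapse, and Grip1 holds GluA2 and GluA3 by their tails.

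Promoters were shown for Cacng3, Cacng2 and Gria4 because Cacng3 was in a correlated pair with Prrt1, and Cacng2 and Gria4 were in none that passed the test. The pair is described further on, with a setting under which it did not pass and the limit of that setting. RefSeq's table (GRCr8) held the promoter of 6 of the 10 genes, from 250 bases before the start site to 50 after it, and a script searched both strands for the GC box GGGCGG, the cyclic AMP response element (CRE) TGACGTCA and its core TGACG, the TATA box TATAAA and TTCAGCACC, the left arm of the element bound by REST, a repressor of neuronal genes. Matches are in capitals and each line runs 5′ to 3′ on the gene's strand.
Cacng3, chr1:186632312-186632611, plus strand: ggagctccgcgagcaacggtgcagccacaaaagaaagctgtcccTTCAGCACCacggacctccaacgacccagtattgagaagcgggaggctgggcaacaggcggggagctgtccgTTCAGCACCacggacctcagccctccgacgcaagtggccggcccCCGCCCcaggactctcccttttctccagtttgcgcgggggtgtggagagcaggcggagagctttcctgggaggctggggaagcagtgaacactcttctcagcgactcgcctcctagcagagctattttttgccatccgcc
Cacng2, chr7:111577708-111578007, minus strand: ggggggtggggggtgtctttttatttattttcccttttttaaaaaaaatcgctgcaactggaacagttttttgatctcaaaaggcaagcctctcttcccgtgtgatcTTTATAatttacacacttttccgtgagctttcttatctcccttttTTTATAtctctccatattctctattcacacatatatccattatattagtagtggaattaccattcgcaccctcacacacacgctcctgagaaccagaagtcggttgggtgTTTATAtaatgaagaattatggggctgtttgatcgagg
Gria4, chr8:10319832-10320131, minus strand: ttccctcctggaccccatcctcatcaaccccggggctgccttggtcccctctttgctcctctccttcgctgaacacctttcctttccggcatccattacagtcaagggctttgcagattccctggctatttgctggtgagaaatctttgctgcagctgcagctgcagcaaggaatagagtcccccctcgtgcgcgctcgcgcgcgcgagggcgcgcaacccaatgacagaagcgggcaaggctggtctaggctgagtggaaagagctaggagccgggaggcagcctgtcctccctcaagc
The Cacng3 window held the left arm of the REST element at 2 places, starting at bases 45 and 117 of the window and each followed by acggacct, and 1 GC box at base 161. Of 33469 promoters of the same length, 0.356% held that arm and 1 promoter, that of Cacng3, held it 2 or more times. The Cacng2 window held the letters of the TATA box at 3 places, each as TTTATA and so on the strand opposite to the gene. The last of them, at base 263, lay after the start site. On either strand, the letters of the TATA box were found in 14.2% of promoters and those of the GC box in 33.1%. The Gria4 window held none of the 5 motifs, as did those of Cacng8, Dlg4 and Grip1. A match is a run of letters and no sign of binding, and the absence of one says nothing about a factor. The CRE core, which lies inside the full element, was found in 21.2% of promoters and the full element in 1.83%.

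The values are the authors' processed log2 values, on which rats differ by very little: over all probe sets the SD across the 10 arrays had a median of 2.20 millionths of a log2 unit. Each value below is therefore a distance in millionths of a log2 unit from the mean of the 5 control rats for the same probe set, in the order of rats 1 to 5 of a group. It cannot be read as a fold change of RNA, and sizes are comparable between rats but not between probe sets. To set probe sets side by side, a difference is also divided by the SD within groups, pooled over both. This SD of the members ran from 0.445 to 44.8 millionths, and the mean level of 18 of the 21 probe sets was at or above the median of the table. Markers of neurons, a defining cell of the labelled tissue, were present (Snap25 at a mean of 13.34 and Rbfox3 at 11.54). In bulk brain RNA, fewer cells of a type and less RNA per cell cannot be told apart.

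None of the 21 probe sets passed the test for DMHF against control. The limma fit across all 31042 probe sets called 0 of 21 at an adjusted p under 0.05, with adjusted p from 0.698 to 0.9996, and called 0% of all probe sets. At an unadjusted p under 0.05 it listed 2 of 21, 1 higher and 1 lower, where 3.23% of all probe sets were listed as higher, 2.25% as lower and 5.48% in either direction. Of the 21, 9 had a mean above control and 12 below, with 53.2% of all probe sets above.

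The 8 subunit probe sets all had a lower mean in DMHF, while 9 of the 13 probe sets of the other members had a higher one. The median difference was -0.854 within-group SD over the subunits and 0.417 SD over the others, beside 0.0528 SD over all 31042 probe sets. The others include the 3 probe sets of Prrt1, all higher, and the p value of 1 of them was known when the genes were proposed. The contrast with the subunits is therefore partly set by that choice. Of the TARP probe sets 3 of 4 were higher and of the scaffold probe sets 3 of 6, with medians of 0.219 and 0.0607 SD. None of the 8 subunit probe sets passed the test. Lower means made up 46.8% of all probe sets and 54.4% of those above the median level. These 8 probe sets stem from 4 genes on the same 10 arrays, so they are not 8 independent observations. All 8 stayed below 0 when any single array was left out and with array weights. A common array median moves every difference by the same small amount, from -3.17 to -3.22 millionths for the one nearest 0. It could therefore not change a sign among the 8. Quantile normalization left 3 of the 8 varying between arrays, all below 0. The rest took the same value in all 10 arrays, so no difference remained in them.

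**Figure D1:**
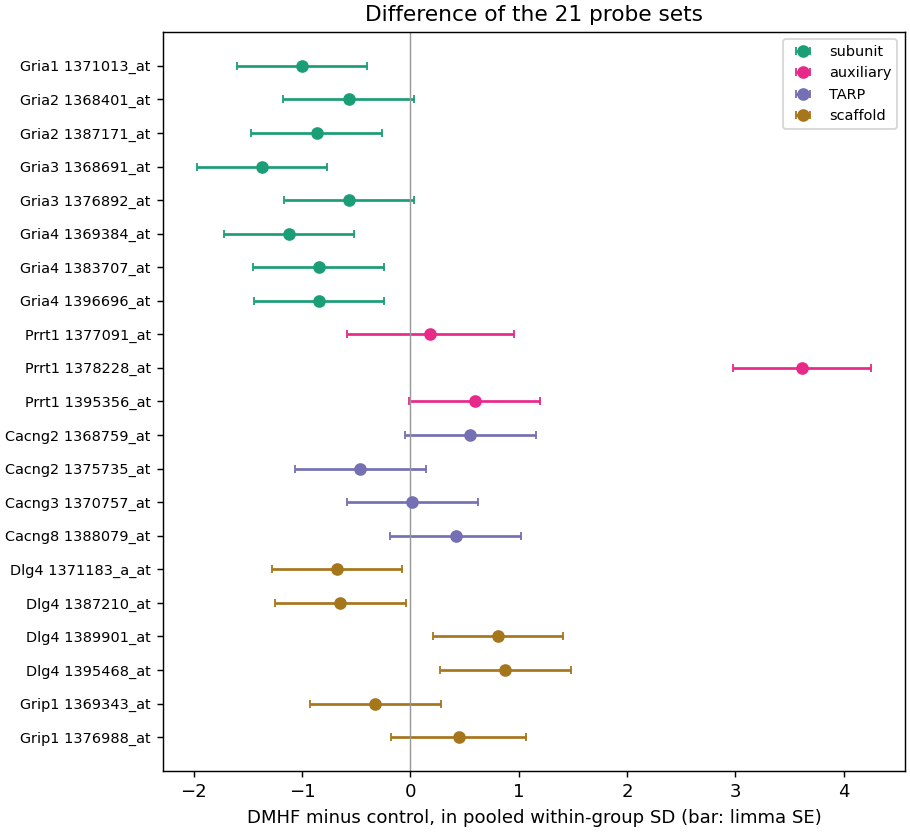
Difference between DMHF and control (x axis, in pooled within-group SD of the probe set, with the limma SE as bar) for each of the 21 probe sets (y axis), coloured by role. All 8 subunit probe sets lie left of 0, Prrt1 1378228_at lies at 3.62 SD, and the TARP and scaffold probe sets lie on both sides of 0.

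Gria1, which encodes a subunit delivered to synapses during long-term potentiation, was measured by 1 probe set with a mean level of 8.74. The control rats stood at 6.02, -7.59, 0.684, 8.17 and -7.29 millionths and the DMHF rats at -2.43, -11.9, -3.13, -9.65 and -3.07. All 5 DMHF rats lay below the control mean and 2 of them below every control rat, but control rats 2 and 5 were lower than the remaining 3 DMHF rats. The difference was -6.03 millionths (limma SE 3.64, n = 5 per group), or -0.999 SD, and ranged from -7.93 to -3.99 with single arrays left out.

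Gria2, the subunit that sets calcium permeability, was measured by a pair of bright probe sets. On 1368401_at, with a mean level of 11.51, the control rats stood at -2.49, -4.89, 5.86, -0.886 and 2.39 millionths and the DMHF rats at -17.6, -2.53, 9.09, -7.7 and -2.53. The groups overlapped, and the DMHF group held both the lowest rat of all, rat 1, and the highest, rat 3. On 1387171_at the control rats ranged from -2.92 to 2.53 and the DMHF rats from -10.9 to 3.16, again with DMHF rat 1 lowest and DMHF rat 3 highest. The differences were -4.25 millionths (SE 4.49), or -0.570 SD, and -3.76 (SE 2.63), or -0.865 SD. Without DMHF rat 1 they shrank to -0.914 and -1.98, and without DMHF rat 3 they widened to -7.58 and -5.49. DMHF rats spread more widely than control rats on both, with SDs of 9.67 against 4.21 and 5.54 against 2.67 millionths, a difference that was not tested.

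Gria3, which pairs mainly with GluA2, had the most negative difference of the members in SD units. On 1368691_at, with a mean level of 8.92, the control rats stood at 42.9, -24.4, 28.6, 17.2 and -64.3 millionths and the DMHF rats at -129, -66.6, -9.11, -70 and -31.2. All 5 DMHF rats lay below the control mean and 3 below every control rat, while control rats 2 and 5 lay within the range of the DMHF group. The difference was -61.3 millionths (SE 27.0), or -1.37 SD, and limma's adjusted p was 0.908. It ran from -77.4 without control rat 5 to -44.2 without DMHF rat 1, and was -17.6 after quantile normalization. On the brighter 1376892_at, with a mean level of 10.67, the control rats stood at -9.12, -12.3, 20.7, -1.34 and 2.04 and the DMHF rats at -37.1, -1.13, 11.4, -29.2 and 5.43. Here 2 DMHF rats, 1 and 4, lay below all controls and the other DMHF rats within the control range. The difference of -10.1 millionths (SE 10.7), or -0.568 SD, was -3.39 without DMHF rat 1, -15.5 without DMHF rat 3 and -35.2 after quantile normalization.

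Gria4, the subunit known for fast gating, was lower on all 3 of its probe sets, by means of -31.4 millionths (SE 16.9), -3.17 (SE 2.27) and -14.0 (SE 10.0), or -1.12, -0.844 and -0.842 SD. Without DMHF rat 2 the first and the last were -20.9 and -8.57, and without control rat 4 the other was -5.12. After quantile normalization 1369384_at, the one that still varied between arrays, stood at -10.1. On 1369384_at the control rats stood at 30.6, -44.4, 10.1, -6.62 and 10.3 and the DMHF rats at -3.5, -73.6, -38.5, -33.1 and -8.52. All 5 DMHF rats were below the control mean, DMHF rat 2 was the lowest and control rat 2 lay lower than all but that one. On 1396696_at the control rats stood at 2.55, -13.4, 9.33, -14.9 and 16.4 and the DMHF rats at 4.16, -35.9, -22.4, -23.9 and 7.9. DMHF rats 2, 3 and 4 lay below every control rat, while DMHF rats 1 and 5 lay among the controls. On 1383707_at the control rats ranged from -7.8 to 4.03 and the DMHF rats from -6.29 to 1.15, and control rat 4 alone set the lower end. DMHF rat 1, lowest in Gria2 and Gria3, was the highest or next to highest DMHF rat on each Gria4 probe set, while DMHF rat 4 lay below every control rat on both Gria2 probe sets and on Gria4 1396696_at.

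**Figure D2:**
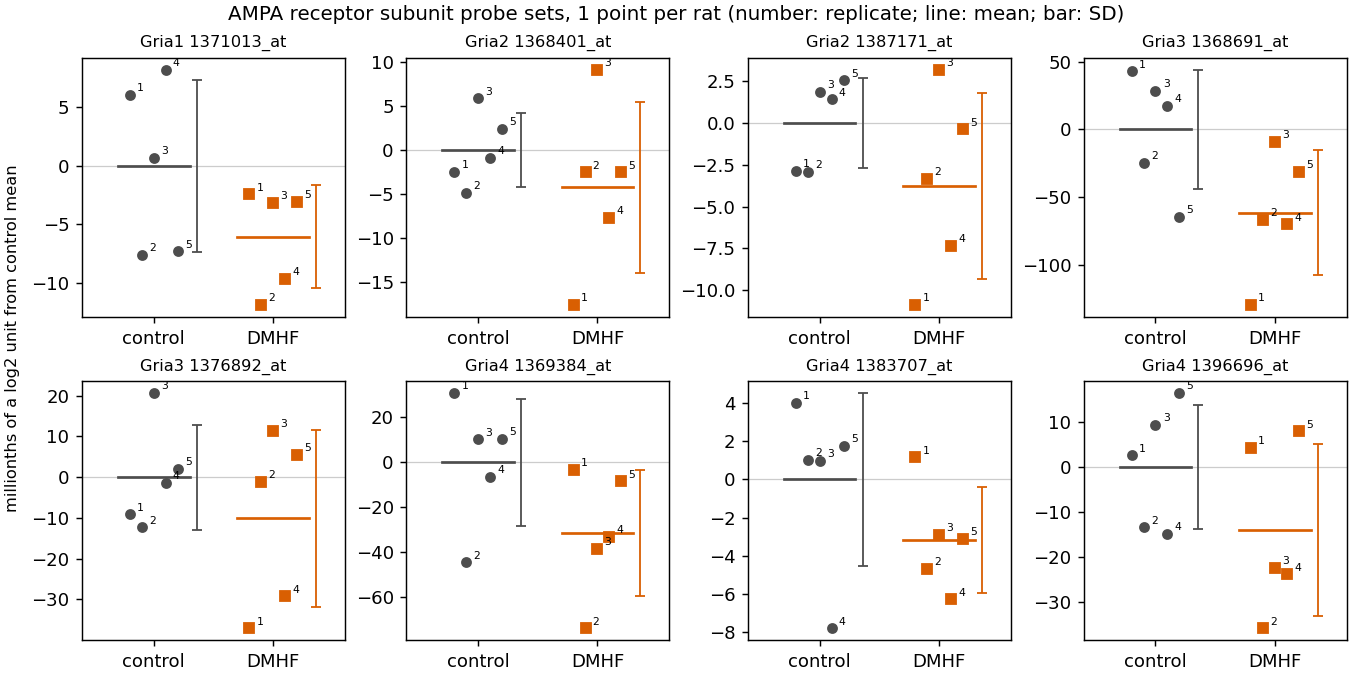
Value of each rat (y axis, millionths of a log2 unit from the control mean) on the 8 subunit probe sets, control as grey circles and DMHF as orange squares, numbered by replicate, with the mean as a line and the SD as a bar. The DMHF mean lies below the control mean in each panel and the groups overlap in each, and DMHF rat 1 is lowest for Gria2 and Gria3 while DMHF rat 2 is lowest of the DMHF rats for Gria1 and for 2 of the Gria4 probe sets.

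Prrt1 was the one member with groups that did not overlap, and on 1 of its 3 probe sets only. On 1378228_at, with a mean level of 7.48, the control rats stood at -0.973, 0.834, 1.49, -0.915 and -0.434 millionths and the DMHF rats at 2.27, 4.51, 4.27, 4.27 and 3.25. Every DMHF rat lay above every control rat, with DMHF rat 1 and control rat 3 nearest to each other. The difference was 3.71 millionths (SE 0.654), or 3.62 SD, and stayed between 3.47 and 4.09 with single arrays left out. This is the value for which the gene came to attention, and its adjusted p in limma was 0.698. Groups did not overlap in 0.867% of all probe sets, with DMHF higher in 0.535% and lower in 0.332%. The array medians themselves differed by up to 15.2 millionths, more than the whole range of this probe set. With every array set to a common median the groups of 1378228_at overlapped, at a difference of 3.67. After quantile normalization this probe set had the same value in all 10 arrays.

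The other probe sets of Prrt1 did not show this. On 1377091_at, the brightest with a mean level of 10.74, the control rats stood at -0.36, -0.27, 0.73, 0.01 and -0.11 and the DMHF rats at -0.44, 0.19, 0.76, -0.22 and 0.12. The groups covered nearly the same range, with rat 3 of either group on top, and the difference was 0.082 millionths (SE 0.342), or 0.184 SD. On 1395356_at the control rats stood at 4.9, 5.82, 5.57, 1.52 and -17.8 and the DMHF rats at -9.5, 9.68, 10.7, 14.2 and 3.78. There 3 DMHF rats lay above all controls and control rat 5 lay far below the rest. The difference of 5.76 millionths (SE 5.85), or 0.593 SD, was 1.31 without control rat 5 and 9.57 without DMHF rat 1. Which transcripts or parts of Prrt1 each probe set reads was not examined.

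**Figure D3:**
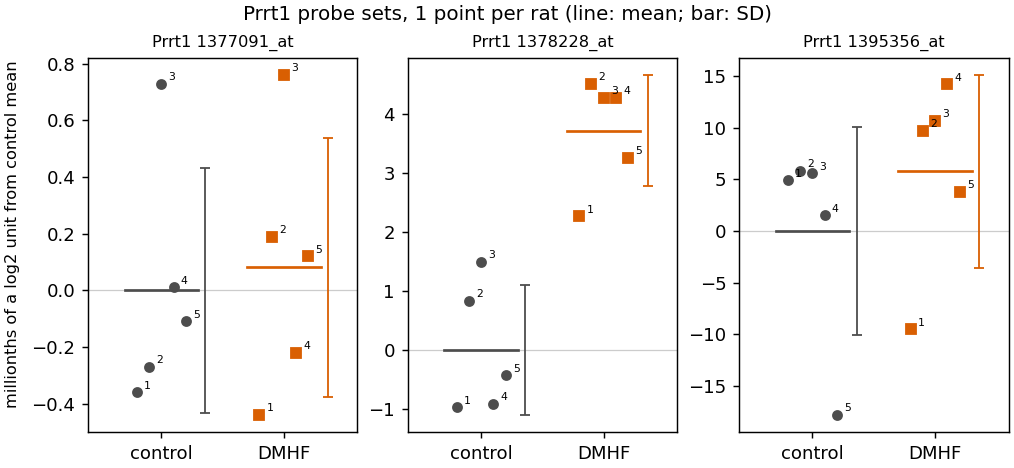
Value of each rat (y axis, millionths of a log2 unit from the control mean) on the 3 Prrt1 probe sets, with control as grey circles, DMHF as orange squares, the mean as a line and the SD as a bar. The groups separate on 1378228_at, from 2.27 upwards in DMHF and up to 1.49 in control, and overlap on the other probe sets.

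The TARPs lay on both sides of 0. Cacng2 encodes stargazin, the TARP of cerebellar granule cells and of much of the forebrain, and its probe sets differed by 2.07 millionths (SE 2.25), or 0.555 SD, and by -1.80 (SE 2.35), or -0.463 SD. On 1368759_at the control rats ranged from -3.46 to 5.5 and the DMHF rats from -1.88 to 5.82, and on 1375735_at from -2.94 to 3.49 and from -9.74 to 2.00. The negative value rested on DMHF rat 1, without which it was 0.179, and the positive one ran from 1.13 without DMHF rat 5 to 3.44 without control rat 5. Cacng3, a TARP of cortex, differed by 0.218 millionths (SE 6.66), or 0.0197 SD, with control rats at -10.3, -3.07, 18.1, 3.13 and -7.88 and DMHF rats at -15.3, 5.1, 13.4, -4.23 and 2.07. Both groups spread over the same range, rat 3 was highest and rat 1 lowest in either group, and the sign changed in 6 of the 10 fits that left out an array. Cacng8, a TARP of hippocampus, differed by 3.84 millionths (SE 5.54), or 0.417 SD, and 1.72 without control rat 5, with control rats from -8.5 to 16.8 and DMHF rats from -9.72 to 11.4. Its highest rat was control rat 4, without which the difference was 8.05.

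The probe sets of the scaffold genes had means on both sides of 0. Dlg4, the main scaffold of excitatory synapses, was lower on 1371183_a_at (-5.91 millionths, SE 5.26) and 1387210_at (-2.15, SE 2.01) and higher on 1389901_at (6.72, SE 4.99) and 1395468_at (8.42, SE 5.77). In SD units these were -0.677, -0.647, 0.811 and 0.878, so none of them exceeded the spread between rats of a group. They shrank to -3.06 without control rat 2, -0.771 without DMHF rat 1, 2.98 without DMHF rat 2 and 4.14 without control rat 1, in the same order, and 1389901_at stood at 37.8 after quantile normalization. On 1371183_a_at the control rats ranged from -9.39 to 11.4 and the DMHF rats from -16.7 to 3.62, and on 1395468_at from -17.1 to 11.6 and from -1.45 to 14.1. Grip1 differed by -0.904 (SE 1.69) on 1369343_at and 0.609 (SE 0.849) on 1376988_at, or -0.324 and 0.445 SD. Without control rat 2 these were 0.147 and 0.173, so the opposite signs rested on that rat, and 1376988_at turned to -1.10 after quantile normalization. Its DMHF rats lay within the control range on both probe sets.

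Rats of the same group also differed from each other, and this variation does not use the difference between the groups. The group mean was taken from each value and the 210 pairs of member probe sets were compared over the 10 rats, with exact two-sided permutation tests within groups (14400 assignments, smallest possible p 6.944e-05) and Benjamini-Hochberg adjustment over the 210. A total of 5 pairs passed, all positive, and they linked Gria2, Gria3, the brightest Prrt1 probe set and Cacng3. Prrt1 1377091_at and Cacng3 correlated at a Pearson's r of 0.957 and a Spearman's rho of 0.952 (exact permutation p = 0.000417 for each, adjusted 0.0292 and 0.0438), and r was 0.905 without the 2 rats farthest from the median. Gria2 1368401_at and Gria3 1376892_at correlated at r = 0.907 and rho = 0.948 (exact permutation p = 0.000139 for each, adjusted 0.0292 for each), with r = 0.918 without the 2 farthest rats. Both of these pairs also passed by rank. With a common array median Gria2 and Gria3 kept the call (r = 0.919, adjusted exact permutation p = 0.00772) and Prrt1 and Cacng3 lost it (r = 0.597, adjusted exact permutation p = 0.315).

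The remaining 3 pairs passed by r and not by rank. They were Gria2 1387171_at with Gria3 1376892_at (r = 0.916, rho = 0.915), Gria3 1376892_at with Prrt1 1377091_at (r = 0.905, rho = 0.927) and Gria2 1368401_at with Prrt1 1377091_at (r = 0.886, rho = 0.863). Their adjusted p was 0.0292 each by r and 0.123, 0.106 and 0.123 by rank, in the exact permutation tests, and r was 0.852, 0.853 and 0.866 without the 2 farthest rats. Among all other probe sets, 0.193% correlated with Gria2 1368401_at at 0.9 or more and 0.267% with Prrt1 1377091_at. With a common array median, which adds the same offset to all probe sets of an array, Gria3 with Prrt1 also lost the call (r = 0.666, adjusted exact permutation p = 0.0612). Both pairs with Gria2 kept it (r = 0.876 and 0.799), but 27 of the 210 pairs passed under this setting. The array medians spanned 15.2 millionths, beside a within-group SD of 0.445 for Prrt1 1377091_at. Its values are then mostly the offset, so the kept call of Gria2 1368401_at with Prrt1 is no support for that pair. For the same reason the lost calls of Prrt1 with Cacng3 and with Gria3 decide nothing about those pairs. With single arrays left out r of the 5 pairs ran from 0.816 to 0.973. The number of pairs that passed was 3 without control rat 3, 9 without control rat 5, 2 without DMHF rat 2 and 0 without any other rat. Among these, 2, 5 and 1 in the same order belonged to the 5 pairs above.

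**Figure D4:**
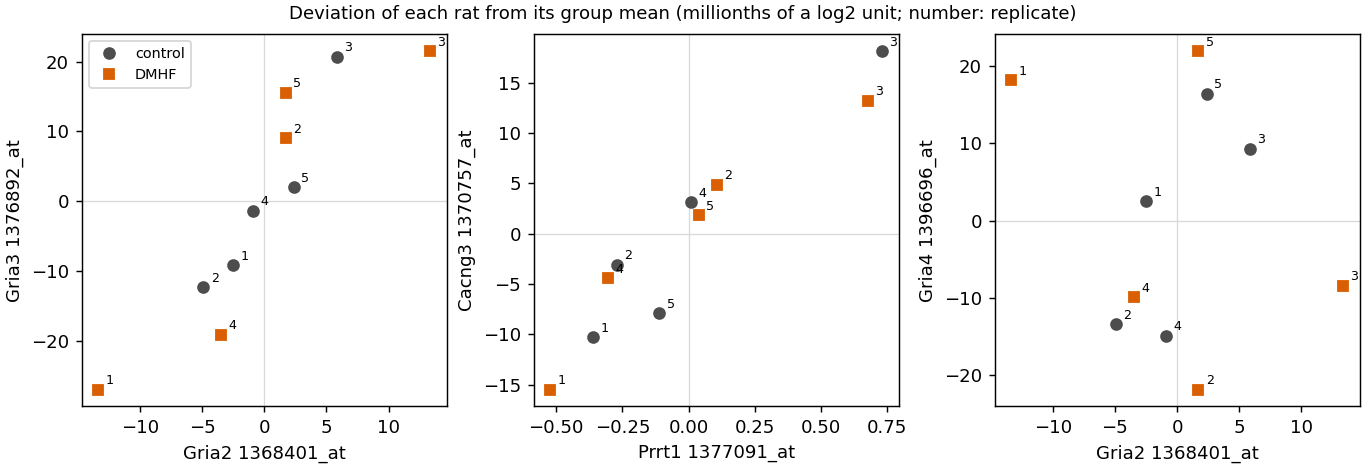
Deviation of each rat from its group mean (both axes, millionths of a log2 unit) for 3 pairs of probe sets, control as grey circles and DMHF as orange squares, numbered by replicate. Gria2 with Gria3 and Prrt1 with Cacng3 lie close to a line (r = 0.907 and 0.957), and Gria2 with Gria4 are scattered (r = -0.155, and 0.501 without the 2 rats farthest in Gria2).

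No pair with Gria4 passed. Its probe sets correlated with one another at r of 0.814, 0.584 and 0.412 (adjusted exact permutation p = 0.130, 0.495 and 0.721) and with the Gria2 probe sets between -0.286 and -0.0305. These negative values rested on a few rats: without the 2 farthest, r ran from -0.120 to 0.551 and was positive in 5 of the 6 pairs. Whether Gria4 differed from Gria3 in its relation to Gria2 was not tested. The strongest negative relation of Gria4 was with the hippocampal TARP Cacng8, at r = -0.823 for 1383707_at and -0.734 for 1396696_at (adjusted exact permutation p = 0.323 and 0.183). Both Gria2 probe sets followed each other at r = 0.937 (adjusted exact permutation p = 0.0535), which missed the threshold, while the Gria3 probe sets did so at 0.609. Within Dlg4, 1371183_a_at and 1387210_at correlated at 0.763, and 1395468_at ran against the other 3 probe sets at -0.617, -0.529 and -0.331. Of the 16 pairs of probe sets for the same gene, 12 had a positive r.

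**Figure D5:**
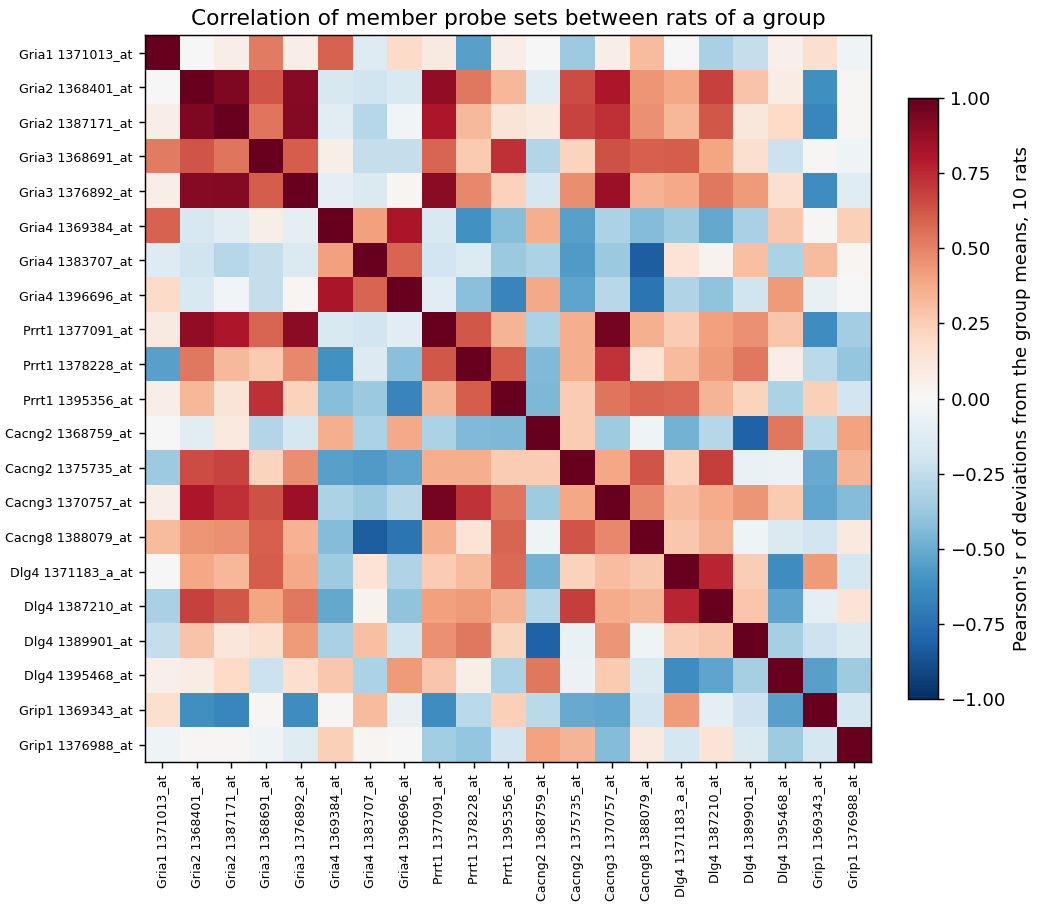
Pearson's r (colour, from blue at -1 to red at 1) between the deviations from the group means of each pair of the 21 probe sets over 10 rats. Gria2, Gria3 1376892_at, Prrt1 1377091_at and Cacng3 form a red block with r between 0.733 and 0.957, and the 3 Gria4 probe sets correlate with one another at 0.412 to 0.814.

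Markers of brain regions and cell types were set beside the members in the same way. Over 73 markers and 21 probe sets, 1533 correlations were computed. By r, 0 passed adjustment in the exact permutation test (smallest adjusted p = 0.0532, and 181 at an unadjusted p under 0.05), and 5 passed by rank. The markers named were chosen after their values were seen. The glutamatergic list has 4 measured markers, and Slc17a6, the vesicular glutamate transporter of thalamus and brain stem, ran opposite to Gria2 1368401_at (r = -0.944, rho = -0.961, adjusted exact permutation p = 0.0532 and 0.0426). It also ran opposite to Gria3 1376892_at (r = -0.966), Prrt1 1377091_at (r = -0.939) and Cacng3 (r = -0.876). Slc17a7, the transporter of cortex and hippocampus, ran with these probe sets at r of 0.850, 0.794, 0.773 and 0.831, and Neurod6, a transcription factor of cortical pyramidal cells, at 0.702, 0.778, 0.810 and 0.911. Tbr1, the last of the list and a factor of deep cortical layers, stood at 0.369, 0.404, 0.534 and 0.664. With Prrt1 1377091_at the rank correlation of Slc17a7 was 0.952 (adjusted exact permutation p = 0.0355). Without the 2 farthest rats r with Slc17a6 was -0.957 for Gria2 1368401_at, and r with Slc17a7 was 0.546. The other relations that passed by rank were Prrt1 1378228_at with Slc1a3, an astrocyte glutamate transporter (rho = -0.924), Prrt1 1395356_at with Gad1, the GABA-making enzyme (rho = -0.915), and Dlg4 1389901_at with Mobp, a myelin protein (rho = -0.988). Their adjusted exact permutation p was 0.0426, 0.0355 and 0.0355 by rank and 0.0532 each by r. The rest of their lists followed in part. With Prrt1 1378228_at 2 of 6 astrocyte markers had a positive r, and with Prrt1 1395356_at 2 of 5 GABAergic markers did. Of the 5 oligodendrocyte markers 0 had a positive r with Dlg4 1389901_at, but all 5 had one with Dlg4 1395468_at.

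All 5 oligodendrocyte markers ran against Gria2 1368401_at, Gria3 1376892_at, Prrt1 1377091_at and Cacng3, with median r of -0.680, -0.671, -0.751 and -0.753. Other lists were as uniform for these probe sets: all 7 choroid plexus markers had a negative r (medians -0.574, -0.677, -0.569 and -0.374), as did all 4 ependymal markers, and all 6 striatal markers had a positive one (medians 0.509, 0.434, 0.416 and 0.327). These 4 probe sets correlate with one another in the same rats, so they are not 4 independent observations. Other probe sets of their genes varied. Positive were 2 of 7 choroid plexus and 3 of 6 striatal markers for Gria3 1368691_at, 6 of 7 and 1 of 6 for Prrt1 1395356_at, and 0 of 7 and 6 of 6 for Gria2 1387171_at. Of the 5 cerebellar markers, Pcp2, made by Purkinje cells, ran with Gria4 1369384_at at r = 0.888 and with 1396696_at at 0.859, and Gabra6, a receptor subunit of granule cells, at 0.820 and 0.816. Cbln1 stood at 0.595 and 0.598, Calb1 at 0.751 and 0.697, and Neurod2, also a cortical gene, at -0.502 and -0.305. With 1383707_at, the brightest Gria4 probe set, r was lower for Pcp2 (0.417), Gabra6 (0.549), Cbln1 (0.468) and Calb1 (0.587), and was 0.187 for Neurod2. The mean of the cerebellar list, in SD from the control mean, ran from -0.849 to 0.807 in control and from -1.07 to 0.612 in DMHF. The part of region or cell content in the relations between members was not tested.

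No marker of any list passed the test for DMHF against control in limma, and the lists themselves were not tested. The counts below stand beside 53.2% of all probe sets with a higher mean, and lower means made up 39.2% of those under the median level, where the 4 ependymal and 6 of the 7 pituitary markers lay. All 4 measured ependymal markers had a higher mean in DMHF, and the mean of the list ran from -0.911 to 1.17 SD in control and from 0.401 to 1.84 in DMHF. The pituitary list had 6 of 7 higher, from -1.15 to 0.569 in control and from 0.225 to 1.76 in DMHF, and the choroid plexus list 6 of 7, from -1.10 to 0.811 and from -0.313 to 1.68. All 6 striatal markers had a lower mean, from -1.002 to 1.14 in control and from -1.17 to 0.782 in DMHF. The general neuronal list had 3 of 6 higher, from -0.147 to 0.153 in control and from -1.06 to 0.461 in DMHF. The hippocampal list had 4 of 5 higher, from -0.457 to 0.250 in control and from 0.291 to 0.894 in DMHF. The part of these markers in the subunit and Prrt1 values was not tested.

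No other gene of the AMPA receptor pathway passed the test, and each of the lists held more lower than higher means. Lower means made up 46.8% of all probe sets and 54.4% of those above the median level, and 5.48% of all were listed at an unadjusted p under 0.05. Of 22 further auxiliary and assembly proteins, 17 were measured by 21 probe sets, of which 4 had a higher and 17 a lower mean, 0 passed in limma and 0 were listed at an unadjusted p under 0.05. The smallest p values were those of Cacng7, a TARP of the other subfamily (9.65 millionths, SE 4.82), Cacng4, a TARP of immature neurons (-3.05, SE 2.11), and Olfm1, a secreted protein found in AMPA receptor complexes (-0.500, SE 0.404). The median difference of the list was -0.332 SD.

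Of the scaffolds and trafficking partners, 31 genes were measured by 62 probe sets, 23 with a higher and 39 with a lower mean. In limma 0 passed and 2 were listed at an unadjusted p under 0.05, both lower, and the median was -0.192 SD. Dlgap4, which binds the guanylate kinase domain of PSD-95, stood at -2.74 (SE 1.11), Snx27, which returns receptors from endosomes to the surface, at -1.79 (SE 0.758), with 2 of its 4 probe sets below 0, and Dlgap1 at 25.1 (SE 11.2), with 2 of its 4 above 0. Of the enzymes that modify the receptor, 22 genes were measured by 49 probe sets, 13 higher and 36 lower. In limma 0 passed and 3 were listed at an unadjusted p under 0.05, all lower, and the median was -0.299 SD. Prkar2b, a regulatory subunit of protein kinase A that is anchored at synapses, stood at -3.20 (SE 0.985), or -2.005 SD, Prkcb, a protein kinase C, at -4.48 (SE 1.71) with all 3 probe sets below 0, and Nedd4, a ubiquitin ligase of GluA1, at -6.14 (SE 2.62) with 4 of 6 below 0. Adjusted p in limma was 0.815 for Prkar2b and higher for the other genes named here. The lists were chosen with earlier results of these data known.

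The genes whose rat-to-rat pattern was most like a member were sought among probe sets at or above the array median, over the 10 rats, for the member of each role with the smallest p. Gria3 1368691_at was most like Gabra2 (r = 0.944), Homer1 (0.934) and Dyrk2 (0.925). Prrt1 1378228_at was most like Cdk13 (0.957), Kifc3 (0.934) and Gsk3a (0.933). Cacng2 1368759_at was most like Mbp, the myelin basic protein (0.962 for a probe set of Mbp other than the marker, which stood at 0.597), Mxra7 (0.959) and Mfap1a (0.953), and Dlg4 1395468_at was most like Mettl14 (0.930), Dgat2 (0.920) and Nacad (0.914). Each is the top of about 12190 probe sets searched, so the values are high by selection and carry no p.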

How the data were processed

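Right-brain RNA of 10 rats was measured on 10 Affymetrix arrays, grouped and numbered by their titles. The authors deposited 1 table of processed values for 31099 probe sets, taken as log2 from their range of 5.25 to 14.22. The submitters' processing notes name R 2.7.2. Background correction, normalization and summary were not given in the sources used here. Of the probe sets, 57 controls were left out. Gene names came from the platform annotation, and all 10 gene identifiers were found in NCBI's rat table (GRCr8).

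DMHF was compared with control with limma 3.58.1 in R 4.3.3 (lmFit, eBayes, two-sided, no covariate, Benjamini-Hochberg over 31042 probe sets, threshold 0.05), which supplied every SE. The script was tested on simulated data. Correlations used Python 3.11.15, and their test was added after the values were seen. All probe sets of the 10 members were described, with up to 3 genes of smallest p from each pathway list and the 3 most alike genes per role. Members and lists were chosen with earlier results of these data known. Alternatives were a replicate block, quantile normalization, the same median for all arrays, bright probe sets alone, other variance models, array weights and single arrays left out. The number of arrays limits the precision.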

Additional observations from a re-analysis of the deposited data

Results flagged for a closer look

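Each of the 21 probe sets was checked in both groups of 5 rats for a single rat far from the others, 42 groups in all, of which chance alone would mark about 5%. On Gria4 1383707_at, control rat 4 stood at -7.80 millionths of a log2 unit from the control mean, and the gap to the next rat took up 0.743 of the range of its group. On Prrt1 1395356_at, control rat 5 stood at -17.8 millionths, with a gap of 0.818 of the range. Without these rats the differences were -5.12 in place of -3.17 millionths for Gria4 and 1.31 in place of 5.76 for Prrt1.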

How the results depend on the processing

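The count of 0 member probe sets called held under every alternative run, a common array median, quantile normalization, probe sets above the median level, array weights, a trended and robust variance, the own variance of each probe set, the replicate block (0) and each array left out (0 to 0); limma listed 2 at an unadjusted p under 0.05. Whether replicate numbers pair the rats was not tested. The deviations of same-numbered rats correlated at 0.0288 to 0.273, all above 0. For 3 of the 5 control rats the DMHF rat of the same number was the closest. The 1 probe set without overlap became 0 with a common median and 0 after quantile normalization. Neither setting is a test of that separation. The array medians spanned 15.2 millionths, more than the whole range of this probe set, and quantile normalization made it equal in all arrays. Quantile normalization gave all but 6 of the 21 members the same value in all 10 arrays, and left 10076 of the 31042 probe sets varying. With single arrays left out the count stayed at 1, but leaving out a rat cannot make groups that lie apart overlap. Probe sets higher in DMHF were 9, 7 of 18 above the median level, 1 of 6 after quantile normalization, which left Cacng8 at no difference, and 7 to 10 with single arrays left out. The 276 member differences under alternatives came mostly from single arrays left out, and 6 came from quantile normalization. Of those 6, 3 moved by more than 1 within-group SD, and 0 of the others did. Members that quantile normalization made equal in all arrays are not counted there. The correlated pairs, added later, numbered 5, 2 by Spearman's rho and 0 to 9 with single arrays left out. With a common median, whose offsets all probe sets of an array share, they numbered 27 (3 of the 5 among them). With 9 arrays the smallest possible p of 0.000347 times 210 pairs is 0.0729, so a single pair cannot pass there.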
